A study of Mus musculus with 10 samples.

Results

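Pla1a, Liph, Lipg, Lpl and Lipc, 5 lipase family genes whose enzymes act outside the cell, were followed in mouse pancreas, leaving out the pancreatic digestive lipases of the same family. Members were chosen by gene family around Pla1a, and Pla1a itself was selected on its large increase in DKO over Control in these arrays. The differences of the members between the groups are therefore given as descriptions without a test. Where calls of members in the fit over all genes are counted below, they too are descriptions only. Of the 5 genes, 4 were measured by a transcript cluster of their own (Pla1a, Liph, Lipg and Lpl), out of 19938 genes in all, and Lipc was not analysed here. Each of the 4 had 1 cluster.

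Each of 10 samples was total RNA of whole pancreas from mice of mixed background, read on 1 Affymetrix gene array with several probes along each transcript. The DKO group (n = 5) had the genotype PDX1Cre,Mst1-/-,Mst2L/L. Mst1 was missing in every cell of these mice, while the floxed Mst2 allele is lost only where Cre driven by the Pdx1 promoter is active, which is in the epithelial lineages of the pancreas and not in fat, vessels or blood cells. The Control group (n = 5) is described by that word alone, so its alleles are unstated, and neither age nor sex is given for either group.

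MST1 and MST2 are the kinases at the head of the Hippo cascade, which keeps the transcriptional coactivators YAP and TAZ out of the nucleus. The lipase family to which the 5 genes belong comprises secreted or cell surface enzymes with a serine in their active site. Pla1a and Liph are phospholipases that release a fatty acid from phosphatidylserine and phosphatidic acid, leaving the signalling lipids lysophosphatidylserine and lysophosphatidic acid. Lpl and Lipc hydrolyse the triglycerides of lipoproteins at the vessel wall, and Lipg, made by endothelial cells, acts mainly on the phospholipids of high-density lipoprotein. In whole tissue, fewer cells of a type and less RNA per cell cannot be told apart.

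The arrays had medians of 7.12 to 7.15 (log2 level), and the least similar pair still correlated across genes with r = 0.976. DKO replicate 1 stood apart by its liver transcripts: the mean log2 level of 16 hepatocyte markers was 10.66 there, against 6.20 to 6.99 in the other 4 DKO arrays and 6.33 to 7.05 in Control. Stk4, the gene of MST1, read 5.13 ± 0.06 in DKO and 5.15 ± 0.09 in Control (SD, n = 5 each), within the range of 3.99 to 5.75 that sex-linked genes gave on arrays that do not express them, so it gave no check of the genotype. Acinar markers, which define the tissue, were high in every array (mean of 15 genes 11.93 to 12.28 in DKO and 12.29 to 12.41 in Control). In the limma test 0 markers passed for hepatocytes (of 16), adipocytes (of 13), islet (of 14), fibroblasts (of 14), striated muscle (of 13) and lymphoid cells (of 10). At an unadjusted p under 0.05 there were 3 islet, 2 muscle and 1 fibroblast markers, and 0 in the other 3 lists. The share of all genes at that unadjusted cutoff is not given here, so such counts, here and below, are descriptions only.

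Pla1a, the phosphatidylserine-specific phospholipase, had the widest gap between the groups among the 4 members measured. Its log2 level was 9.85, 9.51, 9.59, 9.59 and 9.98 in DKO replicates 1 to 5, and 7.10, 7.11, 6.96, 6.91 and 6.97 in Control replicates 1 to 5. All DKO arrays were high and all Control arrays low, and the lowest DKO array stood 2.39 above the highest Control array on the log2 scale. The mean log2 difference was 2.69 ± 0.092 (SE), a 6.47-fold higher level in DKO. Both this difference and the gap between the groups ranked 3 among the 19938 genes, which is how the gene came to be chosen. Within the groups the SD of Pla1a was 0.20 in DKO and 0.09 in Control, and its pooled SD of 0.16 was higher than that of 69.5% of genes.

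DKO replicate 1, with the high liver transcripts, held a Pla1a level of 9.85. This was below the 9.98 of DKO replicate 5 and above the 9.51 to 9.59 of the remaining DKO arrays. Without DKO replicate 1 the log2 difference of Pla1a was 2.66. With the hepatocyte marker mean of each array as a covariate the log2 difference was 2.64. Of the macrophage markers 0 of 14 passed the limma test (5 at an unadjusted p under 0.05), and their mean log2 level was 8.64 to 9.04 in DKO against 8.63 to 9.06 in Control. Of the 13 markers of pancreatic duct measured, 4 rose and none fell (7 at an unadjusted p under 0.05), and their mean level was 9.37 to 9.59 in DKO against 9.08 to 9.39 in Control. The 4 were the keratins Krt7 (log2 change 1.22, adjusted p = 0.00112) and Krt19 (0.41, adjusted p = 0.0155), the claudin Cldn4 (1.37, adjusted p = 0.00227) and the tetraspanin Tspan8 (0.96, adjusted p = 0.0248). The part of duct cells in the Pla1a and Liph levels was not tested. Of the acinar markers 1 of 15 fell, Rbpjl, a subunit of the acinar transcription complex (log2 change -0.45, adjusted p = 0.0225), with 4 of the 15 at an unadjusted p under 0.05. The acinar marker mean of every DKO array lay below that of every Control array, and its part in the lipase levels was not tested.

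**Figure D1:**
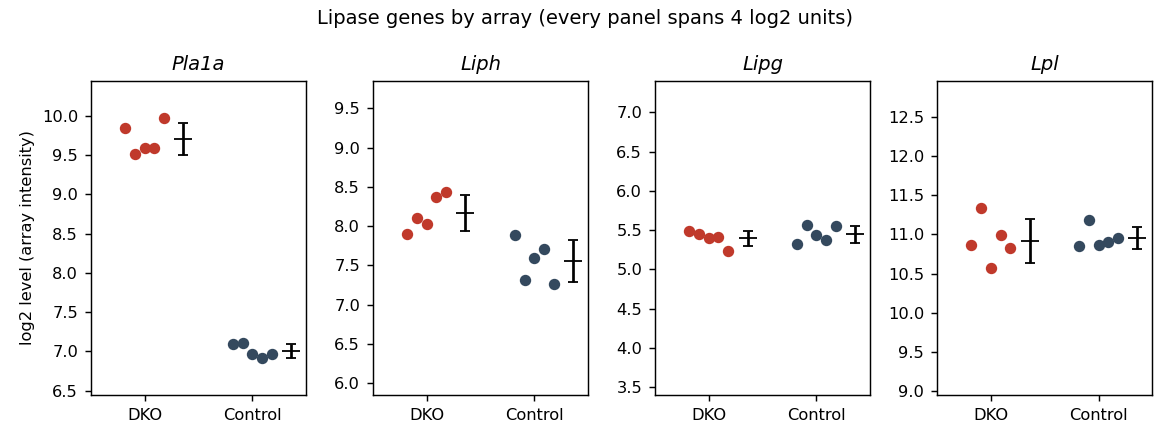
Log2 level of Pla1a, Liph, Lipg and Lpl on each array, DKO (red) left of Control (dark), with the mean and SD over 5 arrays beside the points and the same span of the axis in every panel. Pla1a lies at 9.51 to 9.98 in DKO against 6.91 to 7.11 in Control, Liph is separated by 0.02 only, and the groups of Lipg and Lpl overlap.

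Liph, known as a membrane-associated phospholipase that makes lysophosphatidic acid and is needed for hair growth in humans, showed a smaller difference. Its promoter is the only one of the measured members for which RefSeq sequence was at hand, and the stretch beyond the annotated end of the gene is shown because the DNA motif of the TEAD factors, through which YAP and TAZ act, was looked for there (GRCm38.p6, chr16:21995659-21995792, minus strand, 134 bases, in lower case since no motif is marked).
Liph: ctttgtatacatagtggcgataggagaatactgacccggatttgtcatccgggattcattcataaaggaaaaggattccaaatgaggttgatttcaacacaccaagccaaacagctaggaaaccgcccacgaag
The core GGAATG was on neither strand of this stretch or of the 300-base window around the start site that contains it. The same 6 letters occur in 14.7% of 32851 promoter windows of that length. The absence says only that these letters are not in this window.

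The log2 level of Liph was 7.90, 8.11, 8.03, 8.37 and 8.44 in DKO replicates 1 to 5, and 7.89, 7.32, 7.60, 7.71 and 7.26 in Control replicates 1 to 5. DKO arrays were thus all above Control arrays, but DKO replicate 1 and Control replicate 1 differed by 0.02 only. The mean log2 difference was 0.62 ± 0.138 (SE), a 1.53-fold higher level in DKO. Leaving out 1 array at a time gave a log2 difference between 0.54 and 0.70. DKO replicate 1 held the lowest Liph level of its group, and without it the log2 difference was 0.685.

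Of the 4 members measured, 2 (Pla1a and Liph) were past the threshold of an adjusted p of 0.05 and higher in DKO, and none was lower. Pla1a was past it under all 19 alternative settings described below, but Liph under 7 of the 19 only. These settings refit the same arrays, so they are no evidence for a gene chosen on its difference in them. Over all genes 2.08% were called higher and 2.44% were called in either direction. The groups did not overlap, with DKO above, in 2 of the 4 members, and in 3.52% of all genes. The median log2 change was 0.29 over the 4 members and -0.006 over all genes. Since the contrast entered the choice of the members, nothing is read from these counts. Among all called genes 85.0% were higher in DKO, against 72.0% after quantile normalization was applied again and 72.5% after subtraction of array medians.

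Lipg, the endothelial lipase, read 5.49, 5.45, 5.40, 5.41 and 5.24 in DKO replicates 1 to 5, and 5.32, 5.56, 5.44, 5.37 and 5.55 in Control replicates 1 to 5, as log2 levels. The groups overlapped, and every value fell inside the 3.99 to 5.75 read from unexpressed sex-linked genes, so the cluster cannot show a low level of this gene apart from background. The log2 difference was -0.05 ± 0.0662 (SE), with a 95% interval of -0.20 to 0.09. Blood endothelial markers were well measured all the same, with a mean log2 level over 15 genes of 8.97 to 9.20 in DKO and 9.0 to 9.18 in Control, and 0 of the 15 passed limma (1 at an unadjusted p under 0.05).

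Lpl, lipoprotein lipase, is made by fat, muscle and macrophages and is carried to the capillary wall, where it frees fatty acids from circulating lipoproteins. Its log2 level was 10.86, 11.34, 10.57, 10.99 and 10.83 in DKO replicates 1 to 5, and 10.85, 11.19, 10.87, 10.91 and 10.96 in Control replicates 1 to 5. The highest and the lowest array were both DKO, and the Control arrays lay between them. The mean log2 difference was -0.04 ± 0.125 (SE), with a 95% interval of -0.32 to 0.24, so that a change of up to 1.18-fold upward or 0.803-fold downward lay within the error. Without DKO replicate 3 the difference was 0.046 and without DKO replicate 2 it was -0.146.

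The spread of Lpl among arrays went with that of adipocyte markers. Their mean log2 level over 13 genes was 7.45, 8.79, 7.01, 8.19 and 7.70 in DKO replicates 1 to 5, and 7.88, 8.01, 7.86, 7.72 and 7.92 in Control replicates 1 to 5. DKO replicate 2 was highest and DKO replicate 3 lowest in both measures. Adipoq, the gene of the fat hormone adiponectin, read 9.41 in DKO replicate 2 and 5.77 in DKO replicate 3, and Plin1, which coats lipid droplets, 9.46 and 7.38.

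Over the 10 arrays Lpl and the adipocyte mean correlated with Pearson r = 0.907 (two-sided permutation p = 0.00156, adjusted p = 0.0156 over 10 cell type lists) and Spearman rho = 0.879 (permutation p = 0.00165, adjusted p = 0.0165). For deviations from the group means, r was also 0.907. Without the 2 arrays farthest from the median adipocyte level, DKO replicates 2 and 3, r fell to 0.579, so the size of the relation rests in large part on those arrays. Each group has 5 arrays, too few for a correlation within it. With the adipocyte mean as a covariate the log2 difference of Lpl was -0.02, and its SE was 0.0658 in place of 0.125. Macrophage markers gave r = 0.723 with Lpl (permutation p = 0.0141, adjusted p = 0.0704) and rho = 0.60 (permutation p = 0.0729, adjusted p = 0.364), which did not pass after adjustment. For deviations from the group means the macrophage r was 0.789, and without its 2 farthest arrays, DKO replicate 3 and Control replicate 3, it was 0.631, against 0.579 for adipocyte markers without theirs. The difference between the adipocyte and the macrophage correlation was not tested. None of the other 8 lists passed, with r between -0.173 and 0.435.

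**Figure D2:**
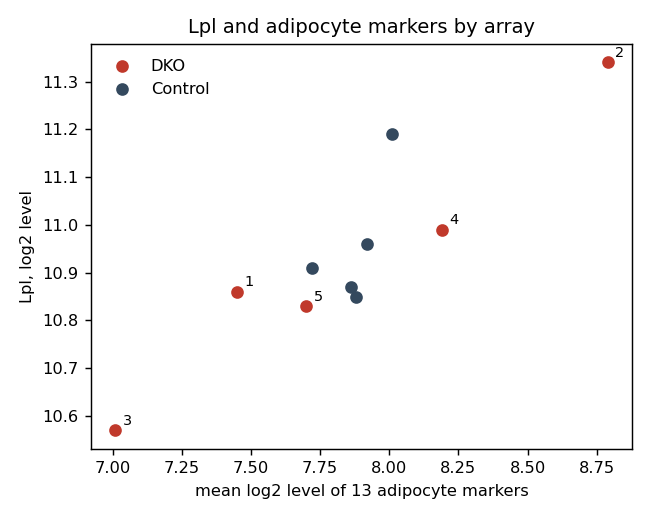
Log2 level of Lpl (vertical axis) against the mean log2 level of 13 adipocyte markers (horizontal axis) on the 10 arrays, DKO in red with replicate numbers and Control in dark. DKO replicate 2 is at the upper right and DKO replicate 3 at the lower left, and Control arrays lie between 7.72 and 8.01 on the horizontal axis.

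The genes whose pattern was most like each member were sought among the 9969 genes in the upper part of the range of mean level, by Pearson r over the 10 arrays and as a description only. For Pla1a they were the pantetheinase gene Vnn1 (r = 0.986), the acetylcholine receptor subunit gene Chrnb1 (0.983), the milk-clotting protease gene Cym (0.983), the semaphorin gene Sema3b (0.981) and the mitochondrial carrier gene Slc25a24 (0.981). In all 5 the groups were separated as in Pla1a, which by itself gives a high r. The size of the difference was not alike: the log2 difference was 3.85 for Cym, 1.90 for Vnn1, 1.04 for Chrnb1, 0.80 for Slc25a24 and 0.71 for Sema3b, against 2.69 for Pla1a.

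After each group had been centred on its own mean, a different set of genes was closest to Pla1a, led by the phosphatase subunit gene Ppp2ca (r = 0.943) and Bcl7c (0.928), followed by Polr2d (0.918), Abcc1 (0.908) and Vopp1 (0.908). Their log2 differences between the groups were small, from -0.15 for Vopp1 to 0.17 for Ppp2ca. For Liph the closest genes over the 10 arrays were the tyrosine kinase gene Frk (r = 0.969), Trim33 (0.964) and Scyl2 (0.962). For Lpl they were the chemokine gene Ccl6 (0.945), the folate receptor gene Folr2 (0.933) and G0s2, an inhibitor of intracellular lipolysis (0.904). For Lipg they were Scarna17 (0.894), Socs1 (0.875) and Mir667 (0.855). Every Lipg value lay within the range of unexpressed genes, so these r may describe background alone.

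**Figure D3:**
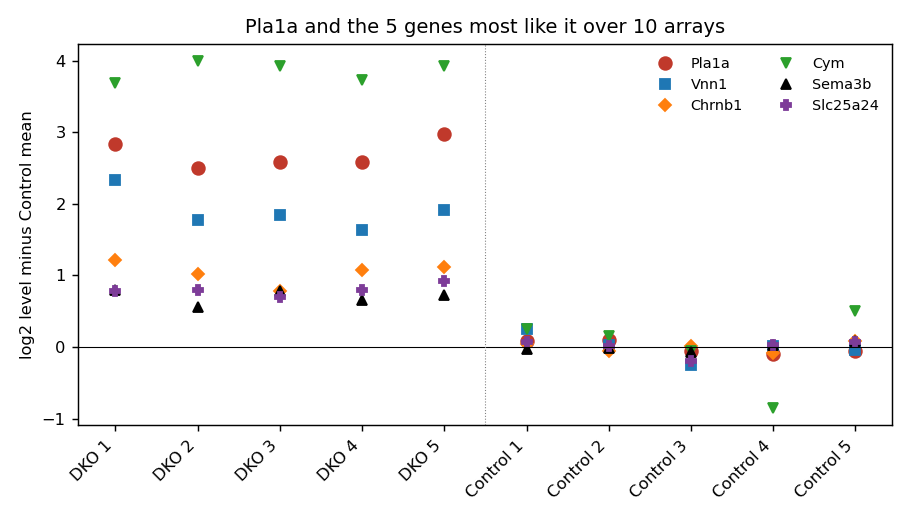
Log2 level minus the Control mean on each array, DKO replicates on the left and Control replicates on the right, for Pla1a (large red circles) and the 5 genes with the highest Pearson r with it. Pla1a lies 2.50 to 2.97 above the Control mean in DKO, below Cym and above Vnn1, Chrnb1, Sema3b and Slc25a24.

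Of the remaining lipases of the family, Lipi, Pnliprp1 and Pnliprp2 were measured and none of the 3 passed limma (1 at an unadjusted p under 0.05), while Pnlip was not analysed here. Lipi, the closest relative of Liph and another source of lysophosphatidic acid, read 4.28 to 4.44 in DKO and 4.36 to 4.46 in Control, within the range of unexpressed genes. The digestive enzyme genes Pnliprp1 and Pnliprp2 lay near the top of the scale. Pnliprp2 read 12.41 to 13.03 in DKO and 13.15 to 13.21 in Control without overlap (log2 change -0.36 ± 0.0998 SE, adjusted p = 0.104), and Pnliprp1 read 13.34 to 13.44 in DKO and 13.43 to 13.46 in Control (log2 change -0.05, adjusted p = 0.587).

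Genes that act on the same lipids were counted in 7 lists, which held 99 measured genes. Over all of them 3 genes passed the test, all higher in DKO, which is 3.03% against 2.44% of all genes. The median log2 change was 0.01, and 17 of the 99 were at an unadjusted p under 0.05. The 3 genes were Pla2g5, Aadac and Plppr1.

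Pla2g5, a secreted phospholipase of the other class, which frees the fatty acid at the middle carbon of phospholipids, had a log2 level of 8.97, 8.04, 8.95, 8.41 and 8.68 in DKO replicates 1 to 5, and 7.24, 6.81, 6.73, 7.11 and 7.18 in Control replicates 1 to 5. The groups did not overlap, with a gap of 0.80. The log2 change was 1.60 ± 0.177 (SE), a 3.02-fold higher level in DKO (adjusted p = 0.00111), and it passed under all 19 alternatives, with adjusted p between 0.000104 and 0.00761. It was 1.51 without DKO replicate 1. Of the 14 secreted phospholipases and related enzymes it was the 1 that rose, and none fell. Pla2g1b, the digestive phospholipase of acinar cells, read 10.20 to 11.34 in DKO and 10.45 to 11.58 in Control (log2 difference -0.17 ± 0.25 SE, adjusted p = 0.772).

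Among 17 other lipases and esterases Aadac alone passed. This esterase of the endoplasmic reticulum, abundant in liver, read 9.76, 7.28, 8.16, 7.60 and 8.18 in DKO replicates 1 to 5, and 5.99, 6.07, 5.88, 5.98 and 6.47 in Control replicates 1 to 5. The highest value fell on DKO replicate 1, the array with high liver transcripts, but the other 4 DKO arrays were also above all Control arrays. The log2 change was 2.12 ± 0.377 (SE, adjusted p = 0.0147), and 1.73 without DKO replicate 1 (adjusted p = 0.00187). Cel, the bile salt-stimulated lipase of acinar cells, read 13.27 to 13.40 in DKO and 13.40 to 13.43 in Control (adjusted p = 0.495). Lipe, the hormone-sensitive lipase of fat cells, read 7.91 to 9.06 in DKO and 8.16 to 8.56 in Control (adjusted p = 0.993).

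The product of Liph acts through lysophosphatidic acid receptors. Of 10 measured genes of this lipid, Plppr1 rose (log2 change 0.36 ± 0.072 SE, adjusted p = 0.0248) and none fell, with 5 of the 10 at an unadjusted p under 0.05. Plppr1 belongs to the lipid phosphatase family by sequence and is known from neurons. It read 9.06 to 9.33 in DKO and 8.68 to 9.02 in Control, and dropping a single array lost the call in 7 of 10 cases (adjusted p up to 0.0745, without Control replicate 2). Lpar6, the receptor tied to Liph in hair follicles, read 9.52 to 10.21 in DKO and 9.42 to 9.85 in Control (log2 difference 0.20 ± 0.129 SE, adjusted p = 0.503). Lpar2 read 7.37 to 7.71 in DKO and 7.03 to 7.43 in Control (log2 difference 0.32 ± 0.0866 SE, adjusted p = 0.0936). Its adjusted p passed the threshold without DKO replicate 1 and with the hepatocyte marker mean as a covariate. The phosphatases Plpp1 and Plpp2, which degrade the lipid, differed by 0.26 and 0.25 on the log2 scale (adjusted p = 0.192 and 0.225).

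The product of Pla1a acts through the receptors Gpr34, P2ry10 and Gpr174 of immune cells. On these arrays all 3 read low: Gpr34 4.82 to 4.91 in DKO and 4.74 to 4.83 in Control, P2ry10 3.94 to 4.24 in DKO and 3.84 to 3.96 in Control, and Gpr174 3.83 to 4.09 in DKO and 3.95 to 4.19 in Control. These levels did not rise above the reading of unexpressed genes. Of 14 genes of phosphatidylserine and its lysolipid 0 passed limma (3 at an unadjusted p under 0.05). The lowest p was that of Atp11a, a flippase that returns phosphatidylserine to the inner leaflet, at 9.33 to 9.53 in DKO and 9.02 to 9.28 in Control (log2 difference 0.26 ± 0.0611 SE, adjusted p = 0.0521). Atp11a passed without Control replicate 1 (adjusted p = 0.0472) and with dim genes left out (adjusted p = 0.0465). Plscr1, a scramblase-related protein, differed by 0.27 (adjusted p = 0.0972), and passed without DKO replicate 3 and with the mean of clusters per gene. The lysolipid hydrolase Abhd12 differed by 0.09 (adjusted p = 0.52), and Abhd16a, which makes lysophosphatidylserine inside the cell, by -0.10 (adjusted p = 0.462).

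**Figure D4:**
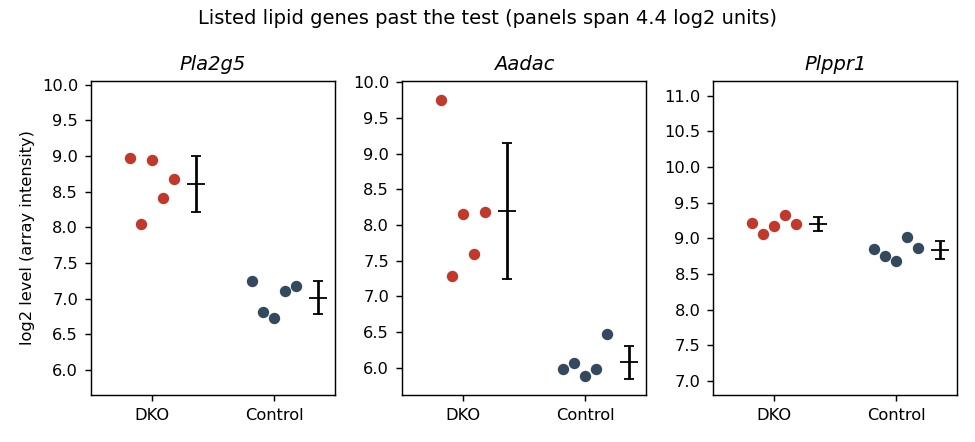
Log2 level of Pla2g5, Aadac and Plppr1 on each array, DKO (red) left of Control (dark), with mean and SD over 5 arrays, on axes of equal span. The lowest DKO array is above the highest Control array by 0.80 for Pla2g5, 0.81 for Aadac and 0.04 for Plppr1, and the single high Aadac value of 9.76 is DKO replicate 1.

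Of 19 measured genes that fold, carry, cleave or inhibit Lpl and its relatives, 0 passed limma (2 at an unadjusted p under 0.05). Gpihbp1, which anchors Lpl on capillaries, read 7.87 to 8.30 in DKO and 7.98 to 8.29 in Control (log2 difference -0.05 ± 0.0904 SE). Lmf1, needed for the folding of Lpl, Lipc and Lipg, differed by -0.07 ± 0.048 (SE, adjusted p = 0.533). Angptl4, an inhibitor of Lpl, differed by -0.06 ± 0.143 (SE, adjusted p = 0.864), and Furin, a protease that cleaves lipases, by -0.04 ± 0.0855 (SE, adjusted p = 0.859). Sorl1, a sorting receptor that binds Lpl, came closest (log2 difference 0.29 ± 0.0729 SE, adjusted p = 0.0685), and passed without DKO replicate 4 (adjusted p = 0.0398).

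The mean of that list was 9.43 in DKO replicate 1, against 9.08 to 9.12 in the other DKO arrays and 9.01 to 9.14 in Control. Liver-made apolipoproteins stood high on that array: Apoc1 read 10.86 there, 7.65 to 8.30 in the other DKO arrays and 7.76 to 7.95 in Control. Of 22 genes of lipoprotein and fatty acid handling 0 passed limma (1 at an unadjusted p under 0.05). Lsr, a lipoprotein receptor of epithelia, had the lowest p (log2 difference 0.17, adjusted p = 0.262). Scarb1, the receptor for high-density lipoprotein, read 9.41 to 9.74 in DKO and 9.63 to 9.80 in Control (log2 difference -0.07 ± 0.0663 SE, adjusted p = 0.645).

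**Figure D5:**
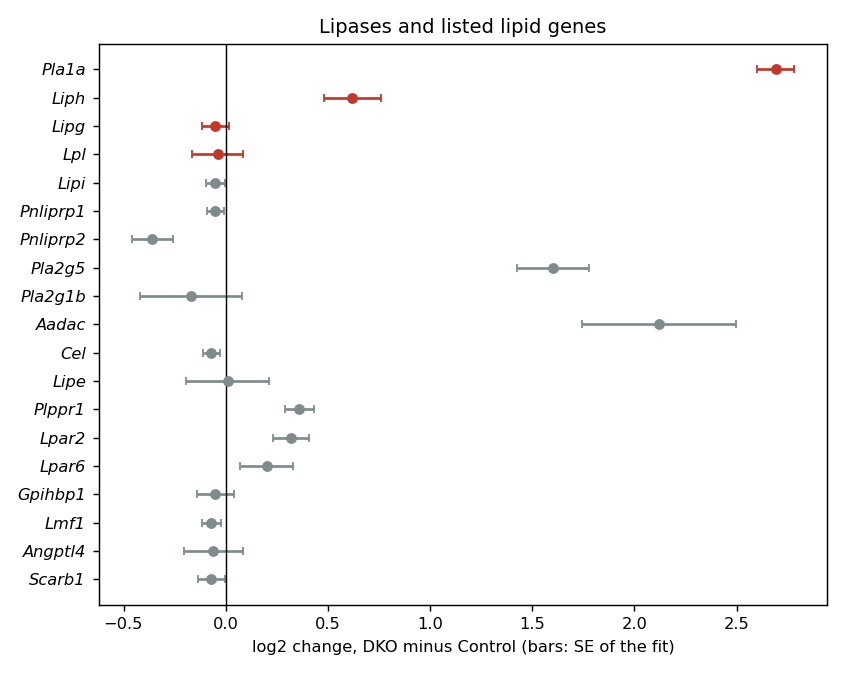
Log2 change of DKO minus Control with the SE of the fit for the 4 measured members (red) and for other lipases and lipid genes (grey). Pla1a at 2.69, Aadac at 2.12 and Pla2g5 at 1.60 lie farthest from 0, Liph is at 0.62, and Lipg, Lpl, Lipi, Pnliprp1, Gpihbp1, Lmf1, Angptl4 and Scarb1 lie between -0.07 and 0 (rounded).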

How the data were processed

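Values were used as deposited: Affymetrix Expression Console made them, per the submitters' processing notes, and no version or normalization method was found (not given in the sources used here). Log2 values from 2.79 to 13.94 were deposited by the authors, 1 per transcript cluster and array. Array medians agree closely, so the authors' values had been brought to a common scale, and no further normalization or filter was applied. Of 35556 clusters 21789 had 1 gene symbol by the platform annotation, and the brightest cluster over all 10 arrays stood for each of 19938 genes. RefSeq tables (GRCm38.p6) updated symbols and gave the promoter sequence; the authors' build is not named.

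DKO was compared with Control by limma 3.58.1 under R 4.3.3 (a linear fit with empirical Bayes variances, two-sided), with p adjusted by Benjamini-Hochberg over all genes at a threshold of 0.05. This fit gave every adjusted p of a single gene and was tested on simulated data. SEs and 95% intervals are from the fit, and errors of means are SDs. Nothing in the labels says that the replicates are separate animals, so the p-values reflect only sample-to-sample spread, which may be technical, and 5 arrays per group limit the precision.

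Members, lists and alternatives were chosen with earlier results of these data known. The named genes were the members, the rest of the family, in each lipid list the genes past the threshold (or the 1 with the smallest p), and the genes most like each member by correlation. Receptors and partners such as Lpar6, Gpr34, Gpihbp1, Pla2g1b, Cel and Apoc1, and the markers given singly, were named for their role after their values were seen. The 10 lists of cell type markers covered hepatocytes, adipocytes, blood endothelium, macrophages, striated muscle, duct, acinar, islet, fibroblast and lymphoid cells. Lipe, Fabp4, Gpihbp1, Apoa1, Apoa2, Apoc3, Cel and Pnlip are in a lipid list and a marker list. Alternatives were quantile normalization again, median subtraction, a filter on dim genes, another variance model, the mean of a gene's clusters, a replicate block, covariates (Xist, hepatocyte or adipocyte level) and each array left out. Lpl was compared with the list means by permutation (100000 resamples). The range given for unexpressed genes is that of 3 Y-linked genes on the 5 arrays high in Xist (2 DKO and 3 Control) and of Xist on the other 5.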

Additional observations from a re-analysis of the deposited data

Results flagged for a closer look

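In 46 groups of 5 arrays examined, 3 held a sample far from the other 4. Chance alone marks about 1 in 20 groups, so the 3 are descriptions only. The groups were those of the members, the rest of the family, the lipid genes named by their p, and the marker lists. Genes named for their role, such as Apoc1 and Furin, were not examined in this way. The hepatocyte marker mean was 10.66 in DKO replicate 1. The islet marker mean was 9.88 in Control replicate 4, against 10.07 to 10.12 in the other Control arrays. The lymphoid marker mean was 6.93 in Control replicate 4, against 6.40 to 6.51 in the other Control arrays. None of the 3 was a value of a lipase member, and the part of these cell types in the lipase levels was not tested beyond the settings given here.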

How the results depend on the processing

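The log2 differences of the members moved by less than 1 SD under every alternative run (19 for Pla1a, Liph and Lpl, 18 for Lipg, which the filter on dim genes removes). For most settings this could not come out otherwise. The replicate block, the variance model, the filter and the mean of clusters leave the difference of a kept member unchanged. Leaving out 1 of 5 arrays cannot move it by 1 SD. The call of Liph could change, and was lost in 12 of the 19 settings. Pla1a lay between 2.62 and 2.74, Liph between 0.54 and 0.70 and Lipg between -0.09 and -0.01, and Lpl, between -0.15 and 0.05, was above 0 in 2 settings. Deviations of same-numbered samples from their group means correlated at -0.267 to 0.29. No pairing by number was seen, but 5 correlations cannot exclude one. With the replicate block 178 genes passed in place of 487, Pla1a was 2.69 and Pla2g5 passed (adjusted p = 0.00761). With the Xist level as a covariate 360 genes passed, among them 1 member, Pla1a. Leaving out 1 array gave 260 to 433 genes, with 260 without Control replicate 3, 268 without Control replicate 2, 303 without DKO replicate 5, 316 without DKO replicate 1 and 324 without DKO replicate 4. Of the listed lipid genes 5 passed in place of 3 after quantile normalization again (Dagla and Mgll besides the 3), and leaving out 1 array gave 2 to 5, with 5 without DKO replicate 3 and 2 without DKO replicate 5, Control replicate 2 or Control replicate 3. The adipocyte covariate was added after seeing the data. Levels near background, as of Lipg and Lipi, and near the top of the scale, as of Pnliprp1 and Cel, limit what differences can be seen.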
